A study of Rattus norvegicus with 16 samples.

Results

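The exocyst is a tethering complex that holds secretory vesicles at the plasma membrane before they fuse. RNA of its subunit genes was sequenced after poly-A selection from frontal cortex of male Sprague-Dawley rats. The 16 libraries fall into 4 groups of 4. Rats of the HF_5AzaD group ate a high fat diet for 7 weeks from an age of 11 weeks and received injections into the abdomen over 10 days of 5-AzaD in PBS; 5-AzaD (5-aza-2′-deoxycytidine) blocks DNA methyltransferases. Rats of the HF_PBS group had that diet too and received PBS alone, the saline vehicle, over the same 10 days. The HF group ate the high fat diet and the chow group a chow diet, both for 7 weeks from an age of 11 weeks. Neither group was injected. The groups follow the treatment stated for each sample. The letters HFD stand for the diet alone in the design text but for the PBS animals in the sample titles. If HF and HF_PBS were exchanged, the values given for the one would belong to the other. The labels do not state that each library is a different animal. The p-values therefore measure the spread between these samples only, which may be technical.

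The members were the 9 genes Exoc1, Exoc2, Exoc3, Exoc4, Exoc5, Exoc6, Exoc6b, Exoc7 and Exoc8, named as a complex, and the locus of each was chosen by its measured level, as the one of its symbol with the highest mean over the 16 libraries. That mean is therefore only described, while differences between groups, which it does not use, were tested. Of the 9 members, 8 had a locus in the deposited table of 28168 loci, and 7 were among the 14824 loci tested. Exoc1 had no row under its symbol and was not analysed here. Exoc7 had 2 loci. The one with the higher mean did not exceed 0.0461 FPKM in any library and was listed at 0 in 12 of 16, and the other was at 0 in all 16. FPKM counts fragments relative to transcript length and to all mapped fragments of the library. Loci entered the test when their 16 libraries averaged 1 FPKM or more, which Exoc8 passed through its level in uninjected rats.

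The subunits assemble from a pair of subcomplexes, one of Exoc1 to Exoc4 and one of Exoc5 to Exoc8, with Exoc6 and Exoc6b as alternative versions of the same subunit. Exoc1 and Exoc7 bind phosphoinositides of the plasma membrane, Exoc2 and Exoc8 bind the Ral GTPases, and Exoc6 and Exoc6b bind Rab GTPases on vesicles. In neurons the complex is known for adding membrane to growing neurites and for the delivery of glutamate receptors to synapses.

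Relative depth, from the steps between the lowest FPKM values, was 30.1% to 54.5% of that of the deepest library, chow 2, in the 11 libraries where at least 100 loci lay on such steps, and absolute depth is unknown. The other 4 libraries had too few such loci. By group those libraries had 34.5% to 40.3% in HF_5AzaD, 32.4% to 36.6% in HF_PBS, 30.1% to 32.1% in HF and 38.7% to 54.5% in chow. All 8 neuron markers were measured, with a summed level of 3397 to 5557 FPKM in HF_5AzaD, 1915 to 5079 in HF_PBS, 3420 to 5835 in HF and 5260 to 6224 in chow. All 8 oligodendrocyte markers summed to 2280 to 7051 FPKM in HF_5AzaD, 3331 to 13440 in HF_PBS, 3124 to 5069 in HF and 3520 to 5459 in chow. HF_PBS 2, 3 and 4 and HF 8 stood apart in genes of the striatum, a region beneath the cortex, with mean log2 deviations over 8 markers of 1.498, 1.42, 1.81 and 2.53, against at most 0.109 in the other libraries.

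Per length, Exoc3 (20.5 FPKM), Exoc2 (19.6) and Exoc6 (18.5) had the highest means over the 16 libraries, and Exoc8 (3.35) the lowest of the 7 tested members. In chow cortex Exoc3 was at 22.2 ± 0.756 FPKM, Exoc2 at 18.2 ± 0.961, Exoc6b at 17.4 ± 0.560, Exoc6 at 16.9 ± 1.146, Exoc4 at 15.9 ± 0.701, Exoc5 at 15.8 ± 0.972 and Exoc8 at 5.71 ± 1.01 (SD, n = 4). From Exoc2 to Exoc5 the ranges of neighbours in this order overlapped, whereas Exoc3 lay above and Exoc8 below all of them in every chow library. In HF_5AzaD cortex the order was Exoc2 (21.7 ± 0.894), Exoc6 (20.1 ± 2.02), Exoc3 (18.6 ± 0.585), Exoc4 (15.8 ± 1.02), Exoc5 (14.1 ± 1.57) and Exoc6b (12.8 ± 2.18). Over all 16 libraries the coefficient of variation was 8.78% for Exoc3 and between 11.8% and 18.7% for Exoc2, Exoc4, Exoc5, Exoc6 and Exoc6b.

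**Figure D1:**
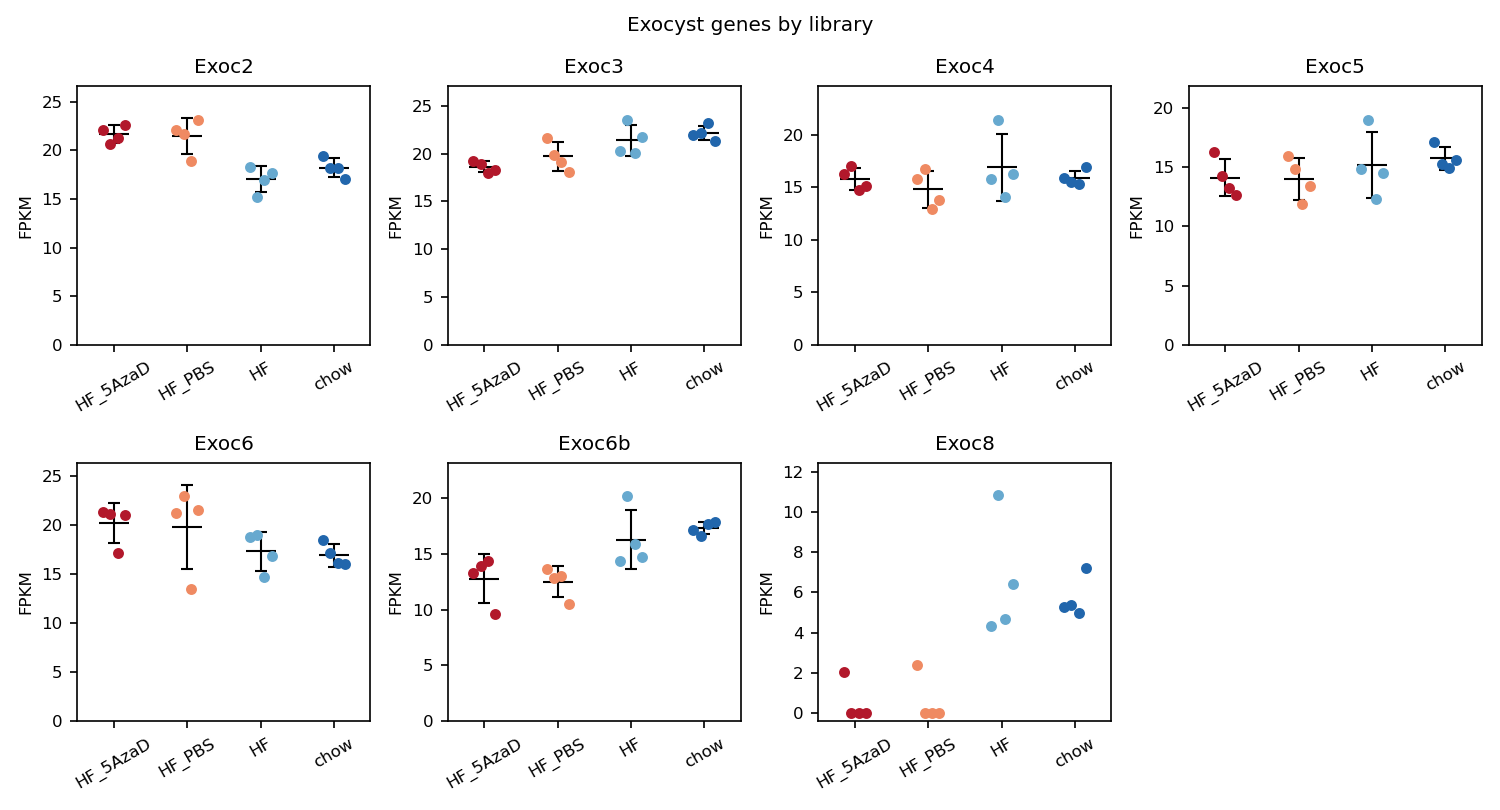
FPKM of the 7 tested exocyst genes in each library (vertical axis, linear) by group; points are libraries, and bars are the mean and SD of 4 libraries, left out for Exoc8, which was listed at 0 in 6 libraries. Exoc2 lies higher, and Exoc6b and the listed values of Exoc8 lie lower, in the injected groups HF_5AzaD and HF_PBS than in HF and chow, with 1 exception for Exoc2, HF_PBS 3 at 18.9 FPKM.

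Members passed the test in the 4 comparisons of an injected with an uninjected group, and none passed in the other comparisons. These 4 comparisons share groups, so they are not independent, and handling or library preparation that followed the injections cannot be told apart from them. In bulk tissue, fewer cells of a type and less RNA per cell cannot be told apart either. With limma on log2(FPKM + 0.5) and Benjamini-Hochberg adjustment over all loci tested, 4 of 7 members passed in HF_5AzaD against chow (1 higher and 3 lower, where 16.3% of all loci passed). There were 3 of 7 in HF_PBS against chow (1 higher, 2 lower, background 28.2%), 2 of 7 in HF_PBS against HF (1 higher, 1 lower, background 23.9%) and 2 of 7 in HF_5AzaD against HF (1 higher, 1 lower, background 14.2%). Each of these counts includes Exoc8, whose calls rest on listed zeros. Without it, 3 of 6 passed in HF_5AzaD against chow, 2 of 6 in HF_PBS against chow, and 1 of 6 both in HF_PBS against HF and in HF_5AzaD against HF. Nothing particular to the complex is read from these counts. Some markers of other cell types passed too. Of all loci, 7.18% were higher in HF_5AzaD against chow, 12.4% in HF_PBS against chow and 10.7% in HF_PBS against HF. Of 7 microglia markers 3 were higher in HF_5AzaD and 3 in HF_PBS against chow, and none passed in either group against HF. Of 6 astrocyte markers 3 were higher in HF_PBS against chow, among them Aqp4 (log2 difference 1.11, adjusted p = 0.00544) and Gfap (1.11, adjusted p = 0.00873), and 1 against HF. In HF_PBS against chow 1 of 8 oligodendrocyte markers, Cldn11, which is near the share of all loci, and 2 of 8 striatum markers were also higher. Their part in the differences of the members was not tested. The median log2 difference of the members was -0.16, -0.17, -0.12 and -0.09 in these comparisons, in the same order, against 0.00, 0.01, 0.01 and 0.02 over all loci. With Exoc8 left out, the median of the members was -0.084, -0.136, -0.109 and -0.085. Without HF 8, HF_PBS 3 and HF_PBS 4 the members called numbered 4 and 2 in HF_5AzaD against chow and against HF, and 0 in both comparisons of HF_PBS. That setting leaves HF_PBS with 2 libraries and keeps HF_PBS 2, which also stood apart in striatum genes (mean log2 deviation 1.498). The differences for HF_PBS were then 0.38 against HF (0.33 with all libraries) and 0.26 against chow (0.23) for Exoc2, and -0.38 against chow (-0.46) for Exoc6b.

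Exoc2, the Sec5 subunit through which Ral GTPases reach the complex, rose in all 4 of these comparisons. It was at 22.1, 20.6, 21.3 and 22.7 FPKM in HF_5AzaD 3, 5, 6 and 7 and at 22.1, 21.7, 18.9 and 23.2 in HF_PBS 1 to 4. The uninjected libraries were at 18.3, 15.2, 16.9 and 17.6 in HF 5 to 8 and at 19.4, 18.2, 18.2 and 17.0 in chow 1 to 4. Of the 8 injected libraries 7 lay above every uninjected one, and HF_PBS 3 lay inside the chow range. The log2 difference was 0.34 in HF_5AzaD against HF (SE 0.0799, adjusted p = 0.0174) and 0.33 in HF_PBS against HF (SE 0.0799, adjusted p = 0.0116). Against chow it was 0.25 for HF_5AzaD (adjusted p = 0.0492) and 0.23 for HF_PBS (adjusted p = 0.0440), with groups that overlapped in the second. The call in HF_PBS against HF held with any 1 library left out (adjusted p = 0.00925 to 0.0457). It was lost with only the 8 samples of the comparison (0.0705) and without HF 8, HF_PBS 3 and HF_PBS 4 (0.0722). That in HF_5AzaD against HF was lost without HF_5AzaD 7 or HF 6 (adjusted p up to 0.0644) and with only its 8 samples (0.0711). That in HF_5AzaD against chow was lost without any 1 of the 8 libraries (0.0573 to 0.145), and that in HF_PBS against chow without HF_PBS 1, 2 or 4 or chow 2, 3 or 4 (up to 0.131).

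Exoc6b moved the other way. It was at 13.3, 13.9, 14.4 and 9.58 FPKM in HF_5AzaD and 13.6, 12.9, 13.1 and 10.5 in HF_PBS, against 14.4, 20.2, 15.9 and 14.7 in HF and 17.2, 16.7, 17.7 and 17.9 in chow. All 8 injected libraries lay below all 8 uninjected ones, though the gap between HF_5AzaD 6 and HF 5 was small (14.37 and 14.39 FPKM). Exoc6b fell in HF_5AzaD against chow (log2 difference -0.44, SE 0.132, adjusted p = 0.0371) and in HF_PBS against chow (-0.46, adjusted p = 0.0202). Against HF the differences were -0.34 for HF_5AzaD (95% interval -0.62 to -0.06, adjusted p = 0.0895) and -0.36 for HF_PBS (-0.64 to -0.08, adjusted p = 0.0593), which did not pass. The call for HF_5AzaD was lost without HF_5AzaD 7 or any chow library (adjusted p up to 0.125), and the call for HF_PBS without HF_PBS 4 or chow 4 (0.0727 and 0.0508).

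Exoc6, the other version of that subunit, had higher means after injection that did not pass the test. It was at 21.3, 21.1, 17.1 and 21.0 FPKM in HF_5AzaD and 21.2, 22.9, 13.4 and 21.5 in HF_PBS, against 18.7, 19.0, 14.7 and 16.9 in HF and 18.4, 17.1, 16.1 and 15.96 in chow. In the injected groups 6 of 8 libraries lay above every uninjected one, while HF_PBS 3 was the lowest of all 16. HF_PBS 3 also had the lowest neuron marker score (-0.778), beside an oligodendrocyte score of 1.28 and a striatum score of 1.42; their part in its Exoc6 level was not tested. The log2 differences were 0.24 in HF_5AzaD against chow (95% interval -0.06 to 0.55, adjusted p = 0.239), 0.21 in HF_5AzaD against HF (adjusted p = 0.322), 0.20 in HF_PBS against chow (adjusted p = 0.315) and 0.16 in HF_PBS against HF (adjusted p = 0.423). Without HF_PBS 3 the last pair passed, at 0.37 (adjusted p = 0.0290) against chow and 0.34 (adjusted p = 0.0417) against HF.

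Within a library the ratio of Exoc6 to Exoc6b does not depend on how libraries are scaled. It was 1.60, 1.51, 1.19 and 2.19 in HF_5AzaD and 1.55, 1.78, 1.03 and 2.04 in HF_PBS, against 1.30, 0.939, 0.923 and 1.147 in HF and 1.07, 1.03, 0.907 and 0.892 in chow. The group means were 1.63 ± 0.418, 1.60 ± 0.432, 1.08 ± 0.181 and 0.9747 ± 0.0891, in that order of groups. The summed level of the pair was 32.9 ± 2.22 FPKM in HF_5AzaD, 32.3 ± 4.17 in HF_PBS, 33.6 ± 3.84 in HF and 34.2 ± 0.902 in chow, with overlapping groups. The ratio was chosen after the values of both genes had been seen and is given with no test.

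**Figure D2:**
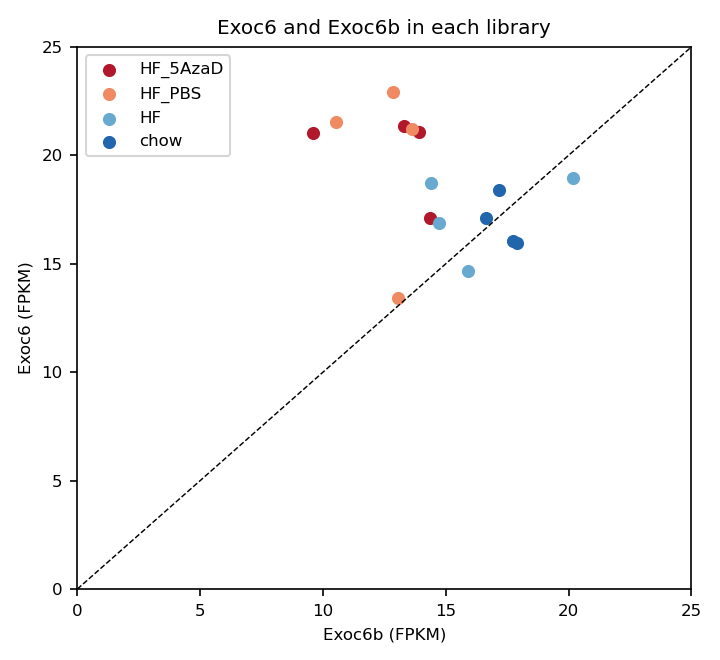
Exoc6 (vertical axis, FPKM) against Exoc6b (horizontal axis, FPKM) in the 16 libraries, coloured by group, with a dashed line where both are equal. The 8 injected libraries lie above the line, at ratios from 1.03 to 2.19, while HF and chow libraries lie on both sides of it, at 0.892 to 1.30.

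Exoc3, the Sec6 subunit that in yeast binds a plasma membrane SNARE protein, was lower in injected rats by less. It was at 19.3, 18.9, 17.96 and 18.3 FPKM in HF_5AzaD and 21.7, 19.9, 19.2 and 18.1 in HF_PBS, against 20.2, 23.6, 20.1 and 21.7 in HF and 22.0, 22.2, 23.2 and 21.3 in chow. All 4 HF_5AzaD libraries lay below every uninjected one, while HF_PBS overlapped with both HF and chow. Exoc3 fell in HF_5AzaD against chow (log2 difference -0.25, SE 0.0732, adjusted p = 0.0371), a call lost without HF_5AzaD 5, 6 or 7 or any chow library (adjusted p up to 0.106). In the other 3 comparisons it was -0.19 in HF_5AzaD against HF (adjusted p = 0.0837), -0.17 in HF_PBS against chow (0.0944) and -0.12 in HF_PBS against HF (0.258). Without HF_PBS 1 the difference between HF_PBS and chow passed (-0.21, adjusted p = 0.0435).

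Exoc4, the Sec8 subunit that binds synaptic scaffold proteins, and Exoc5, the Sec10 subunit, passed in no comparison. Exoc4 was at 15.8 ± 1.02 FPKM in HF_5AzaD, 14.8 ± 1.77 in HF_PBS, 16.9 ± 3.17 in HF and 15.9 ± 0.701 in chow. Exoc5 was at 14.1 ± 1.57 in HF_5AzaD, 14.03 ± 1.78 in HF_PBS, 15.2 ± 2.80 in HF and 15.8 ± 0.972 in chow. HF 6 was the highest of all 16 libraries for both, at 21.4 and 19.0 FPKM. It was also the highest for Exoc3, Exoc6b and Exoc8 and the lowest for Exoc2. The 95% intervals over the 4 comparisons of injected with uninjected groups ran from -0.42 to 0.24 for Exoc4 and from -0.43 to 0.18 for Exoc5.

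Exoc8, the Exo84 subunit and the other Ral-binding one, had the least certain values. It was listed at 2.06, 0, 0 and 0 FPKM in HF_5AzaD 3, 5, 6 and 7 and at 2.39, 0, 0 and 0 in HF_PBS 1 to 4. It was at 4.33, 10.8, 4.67 and 6.43 in HF 5 to 8 and at 5.26, 5.37, 4.99 and 7.21 in chow 1 to 4, so no injected library reached the lowest uninjected one. Limma called it lower in all 4 comparisons of injected with uninjected groups (adjusted p = 0.00408 to 0.0102). Since it entered the test through the uninjected groups, where it is high, these calls are a description and no support for a decrease. No fold is given against listed zeros. An exact 0 in a table of FPKM can be a failed estimate, and whether these zeros are such was not tested. Among the loci tested, Exoc8 was the 1 locus listed at 0 in at least 6 of 8 injected libraries and at 1 FPKM or more in all 8 uninjected ones. Only 1 locus, without a symbol, had the opposite pattern. The limits match the values of Exoc8 listed above, so its meeting them is a description and no support.

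In the RefSeq annotation of the GRCr8 assembly, Exoc8 lies between Gnpat and Sprtn, and the deposited table gives those neighbours as 1 merged locus, Gnpat,Sprtn. That locus was at 25.3 ± 3.07 FPKM in HF_5AzaD, 23.6 ± 2.83 in HF_PBS, 26.0 ± 1.45 in HF and 27.1 ± 0.980 in chow, and passed in no comparison (adjusted p = 0.123 to 0.923). No source used here states the strand of the libraries, so reads of overlapping loci cannot be told apart. Whether reads of Exoc8 were counted there was not tested.

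Neither the diet alone nor 5-AzaD beyond its vehicle moved a member past the test. In HF against chow 0 of 7 passed (background 0%, with 1020 loci and 0 members at an unadjusted limma p under 0.05), with log2 differences from -0.10 for Exoc6b to 0.11 for Exoc8 and adjusted p of 0.815 to 0.981. In HF_5AzaD against HF_PBS 0 of 7 passed (background 0%, with 1100 loci and 0 members at an unadjusted limma p under 0.05), with differences from -0.08 for Exoc3 to 0.09 for Exoc4 and adjusted p of 0.888 to 0.994. For 5-AzaD against PBS the 95% interval of the log2 difference was -0.15 to 0.19 for Exoc2, -0.23 to 0.08 for Exoc3, -0.26 to 0.30 for Exoc6b and -0.26 to 0.36 for Exoc6. That of Exoc8, -1.31 to 1.22, excludes little. A two-sided exact permutation test of each member in each comparison, 42 in all, gave the smallest p that 4 against 4 libraries allow, 0.0286 unadjusted, in 13 cases, of which 9 without Exoc8. This p restates that the groups did not overlap and is no further support. Each case was among the 4 comparisons of injected with uninjected groups. Groups without overlap were found in 27.2% of all loci in HF_5AzaD against chow, 33.3% in HF_PBS against chow, 17.7% in HF_5AzaD against HF and 21.2% in HF_PBS against HF. No member had groups without overlap in HF against chow, where 6.95% of loci did, or in HF_5AzaD against HF_PBS, where 2.4% did.

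**Figure D3:**
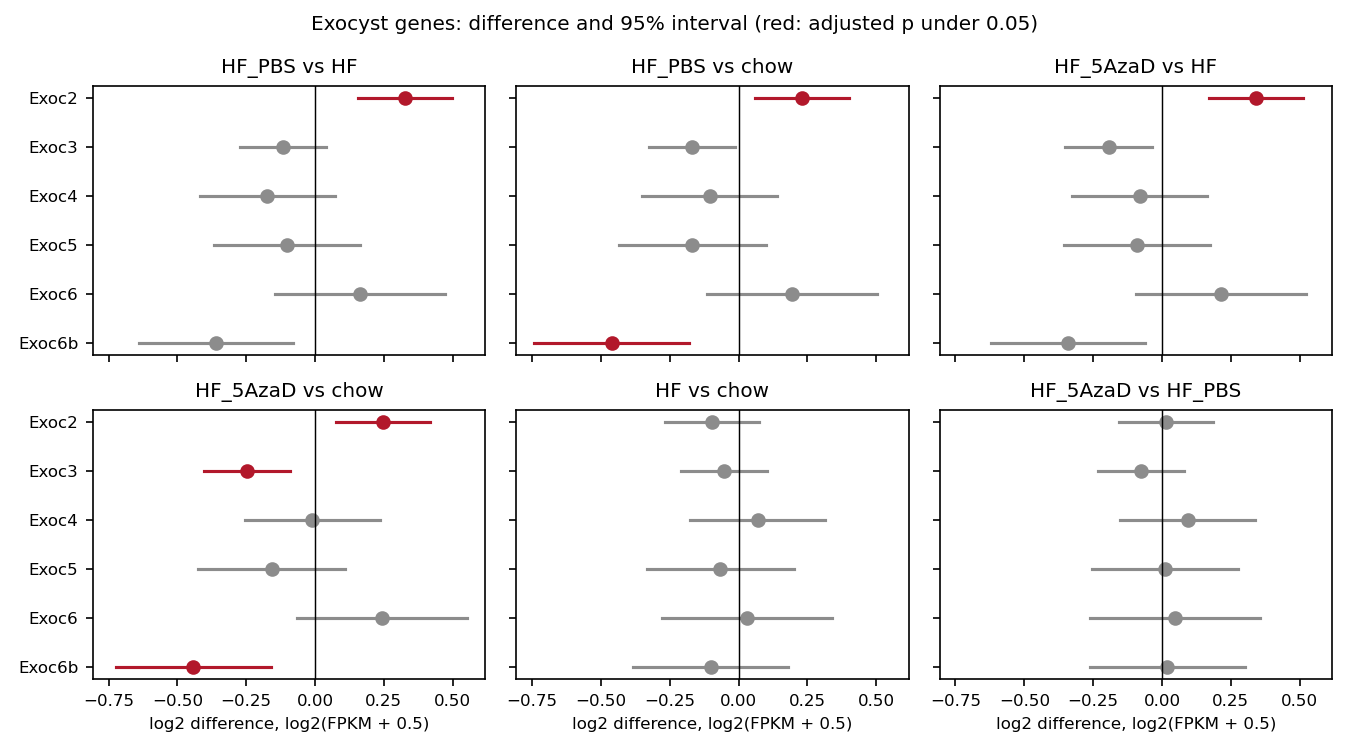
Log2 difference of 6 exocyst genes (horizontal axis, scale of log2(FPKM + 0.5)) in the 6 comparisons, as point and 95% interval from limma, red where the adjusted p is under 0.05; Exoc8 is left out because of its listed zeros. Exoc2 lies right of 0 and Exoc6b left of it in the 4 comparisons of an injected with an uninjected group, and all intervals include 0 in HF vs chow and HF_5AzaD vs HF_PBS.

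Since 5-AzaD acts on methylation of CG dinucleotides, the sequences before the annotated starts of 4 genes are shown: the Ral-binding pair Exoc2 and Exoc8, and Exoc6 and Exoc6b as versions of the same subunit. They were picked after their values had been seen, and Exoc6 passed in no comparison. Each is the 250 bases before the start in RefSeq's GRCr8 assembly (not the rn5 build of the expression table), 5′ to 3′ on the strand of the gene, with each CG in capitals. Exoc2 is at chr17:33714730-33714979 (plus strand), Exoc8 at chr19:69754877-69755126 (minus strand), Exoc6 at chr1:244726834-244727083 (plus strand) and Exoc6b at chr4:119107684-119107933 (minus strand).
Exoc2: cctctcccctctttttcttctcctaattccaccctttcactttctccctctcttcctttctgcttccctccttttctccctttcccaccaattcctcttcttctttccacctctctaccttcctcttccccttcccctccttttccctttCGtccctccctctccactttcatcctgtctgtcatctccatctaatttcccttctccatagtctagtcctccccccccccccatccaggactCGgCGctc
Exoc8: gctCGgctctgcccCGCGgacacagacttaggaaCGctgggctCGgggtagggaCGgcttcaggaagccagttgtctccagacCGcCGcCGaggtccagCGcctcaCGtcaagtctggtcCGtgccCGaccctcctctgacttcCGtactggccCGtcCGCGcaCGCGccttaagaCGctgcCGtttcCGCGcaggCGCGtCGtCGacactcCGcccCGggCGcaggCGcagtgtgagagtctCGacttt
Exoc6: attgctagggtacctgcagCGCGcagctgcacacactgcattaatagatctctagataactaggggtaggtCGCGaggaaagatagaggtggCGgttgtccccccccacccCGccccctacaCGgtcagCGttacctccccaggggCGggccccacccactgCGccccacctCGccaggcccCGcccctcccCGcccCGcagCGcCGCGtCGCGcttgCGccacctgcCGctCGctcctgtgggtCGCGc
Exoc6b: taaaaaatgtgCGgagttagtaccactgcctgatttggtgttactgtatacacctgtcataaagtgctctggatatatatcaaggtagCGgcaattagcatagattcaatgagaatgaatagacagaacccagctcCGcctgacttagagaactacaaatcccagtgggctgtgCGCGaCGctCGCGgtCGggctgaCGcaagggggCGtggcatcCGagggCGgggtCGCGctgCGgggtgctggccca

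RefSeq promoters matched 8 of the 9 members, all but Exoc7. In a window that also holds the first 50 bases after the start, CG stood 38 times for Exoc8, 33 for Exoc6, 19 for Exoc6b and 15 for Exoc2, against a median of 7 over 33469 promoters. As many or more were found in 4.23%, 7.53%, 25.7% and 32.0% of all promoters. None of these genes differed past the test between HF_5AzaD and HF_PBS, and no relation between CG and expression was tested. The GC box GGGCGG, searched on both strands, matched 4 times for Exoc6, once each for Exoc6b and Exoc8 and 0 times for Exoc2, and is found in 33.1% of promoters. The TATA box TATAAA matched in none of the 8, against 14.2% of promoters. The motif TGACG, a core of the cAMP response element, matched 1 time each for Exoc5, Exoc6b and Exoc8, against 21.2% of promoters. Methylation itself was not measured here.

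The GTPases that steer the exocyst and their regulators were described from a list of 22 genes, of which 19 were tested. In HF_PBS against chow 0 rose and 6 fell (background 12.4% higher and 15.7% lower), in HF_PBS against HF 0 rose and 4 fell (10.7% and 13.2%), in HF_5AzaD against HF 1 rose and 1 fell (6.61% and 7.64%), and in HF_5AzaD against chow 0 rose and 1 fell (7.18% and 9.11%). Ralgapb, a subunit of the complex that inactivates Ral, fell in all 4: it was at 13.9 ± 2.31 FPKM in HF_5AzaD and 13.4 ± 1.88 in HF_PBS, against 20.5 ± 3.93 in HF and 22.2 ± 0.634 in chow (log2 difference for HF_PBS against chow -0.72, adjusted p = 0.00424). Its partner Ralgapa1 was at 33.4 ± 5.01 in HF_5AzaD against 25.4 ± 2.46 in HF (0.38, adjusted p = 0.0440). Rgl1, an activator of Ral, was at 12.4 ± 3.05 in HF_PBS against 21.6 ± 0.661 in chow (-0.81, adjusted p = 0.00558). Pip5k1c, a kinase that makes the phosphoinositide bound by the exocyst, was at 76.4 ± 21.1 in HF_PBS against 141 ± 7.08 in chow (-0.92, adjusted p = 0.00558). None of the 19 passed in HF against chow or in HF_5AzaD against HF_PBS. Without HF 8, HF_PBS 3 and HF_PBS 4, only 3 of all loci passed in HF_PBS against chow and 7 against HF. That setting leaves HF_PBS with 2 libraries. HF_PBS 2, 3 and 4 stood apart in striatum genes, and their part in the HF_PBS calls here and in the next paragraph was not tested.

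SNARE proteins and their partners carry out the fusion that follows tethering. Of 17 tested, 3 rose and 4 fell in HF_PBS against chow (12.4% of all loci higher and 15.7% lower), and 3 rose and 3 fell in HF_5AzaD against chow (7.18% and 9.11%). Against HF, 1 rose and 3 fell in HF_PBS (10.7% and 13.2%), and 0 rose and 2 fell in HF_5AzaD (6.61% and 7.64%). Vamp3, a SNARE of recycling vesicles, rose in HF_PBS, at 33.6 ± 9.47 against 19.2 ± 2.07 in chow (0.75, adjusted p = 0.00740). Vamp7 was at 23.1 ± 4.34 in HF_5AzaD against 39.0 ± 3.59 in chow (-0.76, adjusted p = 0.0186), and Stxbp5, an inhibitor of SNARE assembly, at 29.4 ± 5.06 in HF_5AzaD against 40.8 ± 2.22 in chow (-0.48, adjusted p = 0.0380). Of 8 tested cargo and scaffold genes, 2 fell in HF_PBS against chow (15.7% of all loci) and 3 against HF (13.2%), with 0 in HF_5AzaD against chow (9.11%) or HF (7.64%). The NMDA receptor subunit gene Grin2b was at 12.2 ± 4.93 in HF_PBS against 23.7 ± 2.92 in chow (-1.01, adjusted p = 0.0131), and the growth factor receptor gene Igf1r at 3.04 ± 0.364 in HF_PBS against 4.83 ± 0.418 in chow (-0.59, adjusted p = 0.0227). Dlg4, the scaffold PSD-95, was at 251 ± 37.7 in HF_PBS against 360 ± 45.2 in HF (-0.52, adjusted p = 0.0121). Neuron markers fell in 3 of 8 in HF_PBS against chow and 1 of 8 against HF, and in 0 of 8 in both comparisons of HF_5AzaD; their part in these differences was not tested.

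Other tethering complexes also had members past the test. These went in both directions for COG and TRAPP, and only lower for GARP and EARP and for HOPS and CORVET. In HF_5AzaD against chow, 1 of 7 COG genes, 1 of 4 GARP and EARP genes, 3 of 8 HOPS and CORVET genes and 1 of 13 TRAPP genes fell (9.11% of all loci) and none rose (7.18%). In HF_PBS against HF, COG had 1 higher and 2 lower, GARP and EARP 0 and 2, HOPS and CORVET 0 and 4, and TRAPP 3 and 3, where 10.7% of all loci were higher and 13.2% lower. The median log2 difference in HF_5AzaD against chow was -0.12 for COG, -0.20 for GARP and EARP, -0.28 for HOPS and CORVET and 0.14 for TRAPP, beside -0.16 for the exocyst. With Exoc8 left out, that of the exocyst was -0.084, so its place among the complexes depends on the listed zeros of Exoc8. Ccdc132, the EARP subunit also named Vps50, was at 6.32 ± 1.42 FPKM in HF_5AzaD against 11.3 ± 0.632 in chow (-0.82, adjusted p = 0.0409). Vps33a of HOPS was at 10.8 ± 2.16 in HF_5AzaD against 17.1 ± 1.68 in chow (-0.66, adjusted p = 0.0176), and Trappc10 at 14.8 ± 1.73 in HF_5AzaD against 20.4 ± 0.850 in chow (-0.46, adjusted p = 0.0117). Of the 3 NRZ genes 1 was tested and did not pass. Differences between complexes were not tested.

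**Figure D4:**
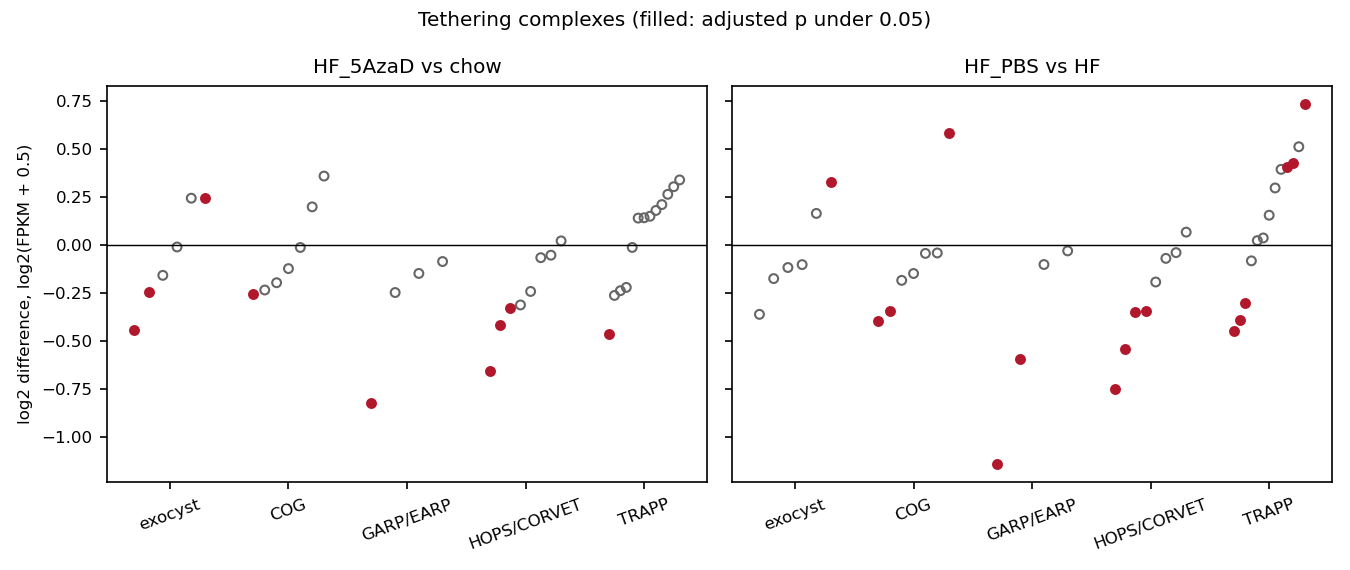
Log2 difference (vertical axis, scale of log2(FPKM + 0.5)) of each tested gene of 5 tethering complexes in HF_5AzaD vs chow (left) and HF_PBS vs HF (right), filled where the adjusted p is under 0.05; Exoc8 is left out. The exocyst genes shown lie between -0.44 and 0.33, within the range of the other complexes in both panels.

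Over all 16 libraries, the genes most like each member in pattern were found among 10492 tested loci with a symbol, by Pearson's r of log2(FPKM + 0.5). They share libraries, depth and the injected groups with the members, so r is a description. Txndc9 (0.970) and Top1 (0.965) were most like Exoc2, and Trip11 (0.964) and Mtmr4 (0.963) most like Exoc6b. Psmd2 (0.961) and Ttc9c (0.951) were most like Exoc8, Ccdc127 (0.920) and Mettl13 (0.912) most like Exoc3, and Cpne8 (0.928) and Pdk3 (0.901) most like Exoc6. RGD1566265 (0.923) and Cs (0.918) were most like Exoc5, and Man1a2 (0.900) and Bmpr2 (0.896) most like Exoc4. Txndc9, for example, was at 41.7 FPKM in HF_5AzaD, 42.4 in HF_PBS, 30.3 in HF and 30.8 in chow.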

How the data were processed

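Values are FPKM per merged locus and library as deposited by the authors, with a status for each. Cuffdiff, Cufflinks, Bowtie2, Bowtie, TopHat2 and TopHat appear in the submitters' processing notes, with the build rn5; no role or version is stated. Values from outside this series made up 0 columns. A locus whose status was not OK in every library was left out (161 loci), as was one averaging under 1 FPKM. Limma 3.58.1 in R 4.3.3 was fitted to log2(FPKM + 0.5) of the 16 libraries, with 4 group means and a mean-dependent prior, and was checked on simulated data. Fold changes on this scale understate those of low genes. Benjamini-Hochberg adjustment covered 14824 loci, at a threshold of 0.05; exact permutation p-values are unadjusted. Python 3.11.15, numpy 2.4.6, pandas 2.3.3 and matplotlib 3.10.9 did the rest. The members and lists were chosen with earlier results of these data known. Named list genes are among up to 3 called members per comparison with the lowest adjusted p, and the 2 most alike genes are given per member. Cdc42 was not tested because of its status. Some genes counted in the lists are not reported here by name.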

Additional observations from a re-analysis of the deposited data

Results flagged for a closer look

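In groups of 4, a library was marked where its gap to the nearest other, as a share of the group's range, exceeded Dixon's 95% critical value. By chance this happens in about 1 of 20 groups. Exoc6 was at 17.1 FPKM in HF_5AzaD 6, against 21.0 to 21.3 in the other HF_5AzaD libraries. Exoc8 was at 2.06 FPKM in HF_5AzaD 3 and at 2.39 FPKM in HF_PBS 1, while the other 3 libraries of each group were listed at 0. The last pair follows from the listed zeros, since any single value above 0 stands apart from equal ones.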

How the results depend on the processing

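Pseudocounts of 0.1 and 1, centring each library on its median, summing the loci of a symbol and, chosen after seeing the data, keeping loci with any status changed no member's call. Members past the test fell to 2 in HF_5AzaD against chow with no filter on low values. With only the 8 samples of a comparison they were 1, Exoc8, in HF_PBS against HF (1433 loci in all, against 3536) and 0 in HF_5AzaD against HF (27 loci, against 2112). Without HF 8, HF_PBS 3 and HF_PBS 4, which leaves fewer samples, they were 0 in HF_PBS against HF (7 loci) and 0 in HF_PBS against chow (3 loci, against 4173), and differences near 0 changed sign: Exoc5 0.0226 in HF_PBS against HF, Exoc4 0.0352 in HF_PBS against chow, and in HF_5AzaD against HF_PBS Exoc2 -0.017, Exoc4 -0.0449, Exoc5 -0.13, Exoc6 -0.13 and Exoc6b -0.065. Exoc2 in HF_PBS against chow missed the threshold with no filter (adjusted p = 0.0543), without a trend in the prior (0.0549) and with 8 samples (0.0775). In HF_5AzaD against chow Exoc2 missed it with no filter (0.0610) and without a trend (0.0604), and Exoc6b with no filter (0.0526). With each replicate left out in turn, members past the test ranged from 2 to 3 in HF_PBS against HF (1633 to 4036 loci), 1 to 4 in HF_PBS against chow (2013 to 4629), 1 to 2 in HF_5AzaD against HF (395 to 2306) and 1 to 3 in HF_5AzaD against chow (399 to 2906), and stayed at 0 to 0 in the other comparisons. Ranges of log2 differences that crossed 0 were, in HF_PBS against HF, -0.19 to 0.0095 for Exoc5; in HF_5AzaD against HF, -0.16 to 0.0367 for Exoc4 and -0.18 to 0.0204 for Exoc5; and in HF_5AzaD against chow, -0.0445 to 0.0203 for Exoc4. In HF against chow they were -0.0465 to 0.15 for Exoc4, -0.18 to 0.0245 for Exoc5, -0.0146 to 0.10 for Exoc6 and -0.14 to 0.27 for Exoc8. In HF_5AzaD against HF_PBS they were -0.0427 to 0.0526 for Exoc2, -0.0637 to 0.074 for Exoc5, -0.12 to 0.13 for Exoc6, -0.0589 to 0.15 for Exoc6b and -0.63 to 0.59 for Exoc8. The causes were not tested.

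Title numbers gave no sign of pairing: same-numbered libraries correlated at -0.164 to 0.024 in HF_PBS and chow and at -0.107 to 0.064 in HF_5AzaD and HF, and 0 of these 7 matched best with their own number. With the replicate block, 2 members passed in HF_PBS against chow (2331 loci) and 0 in HF_5AzaD against HF (0 loci). What part depth had in the low values of Exoc7 was not tested.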

Other observations

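Genes related to Exoc3 were measured beside the complex, and none passed the test. The merged locus Exoc3l1,Kiaa0895l was at 12.5 ± 3.34 FPKM in HF_5AzaD, 12.5 ± 1.59 in HF_PBS, 14.3 ± 1.67 in HF and 11.8 ± 1.53 in chow. Tnfaip2, a related gene induced by tumour necrosis factor, was at 0.813 ± 0.265 in HF_5AzaD, 1.20 ± 0.330 in HF_PBS, 1.54 ± 1.46 in HF and 1.51 ± 0.436 in chow. Exoc3l4 was not tested and did not exceed 0.5504 FPKM in any library.

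With group means removed, some pairs of members still varied together across the 16 libraries, which share their tissue makeup and depth, and others did not. Pearson's r, given as a description, was 0.869 for Exoc4 and Exoc5, 0.713 for Exoc3 and Exoc5, 0.712 for Exoc3 and Exoc4, 0.559 for Exoc2 and Exoc6, -0.143 for Exoc6 and Exoc6b and -0.664 for Exoc2 and Exoc6b. Exoc2 had an r of -0.249 with Exoc3, -0.265 with Exoc4, 0.004 with Exoc5 and -0.009 with Exoc8.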
